A study of Homo sapiens with 9 samples.

Results

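The 10 genes described here encode enzymes that make, convert or break down ceramide: SPTLC1, CERS2, CERS6, ASAH1, ACER2, ACER3, SPHK1, SGPP1, SGMS2 and UGCG. They were found by symbol among the 24069 rows of the deposited expression table, where each had a row of its own. They had been selected on measured values of these same libraries, above all the value of 0 for ACER3 in every PR2 library, so their levels and differences are given as descriptions, with no p-value.

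RNA was sequenced from the parental lung adenocarcinoma cell line LC-2/ad, which is established, human and marked by a CCDC6-RET fusion, and from derivatives of it, PR1 and PR2, that resist ponatinib. This drug blocks several tyrosine kinases, RET among them. Each of the groups had 3 libraries (A, B and C), 9 in all. Both derivatives were kept in 200 nM ponatinib, and no drug is given for parental cells: in each comparison with parental cells, resistance and exposure to the drug cannot be told apart. It is not stated whether PR1 and PR2 are single clones, or whether the letters are separate cultures. The p-values therefore set a difference of group means against the spread between libraries, which may be technical.

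Ceramide is the hub of sphingolipid metabolism. It is built in the endoplasmic reticulum from serine and fatty acyl-CoA, and is then passed on to sphingomyelin or to glucosylceramide, the base of the complex glycosphingolipids. Ceramidases cleave it to sphingosine, which kinases turn into the signalling lipid sphingosine-1-phosphate, and phosphatases turn that lipid back. In lung epithelium sphingolipids are part of surfactant and of the plasma membrane, and the balance of ceramide and sphingosine-1-phosphate is widely studied in cell death and survival.

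Expression is given in FPKM, a fragment count scaled by the length of the transcript and by library size, so that levels of different genes can be set side by side. The libraries were alike in the number of rows at 1 FPKM or more, with 11263 to 11629. Read numbers are unknown. Depth relative to parental A was only inferred, from the most frequent ratio of low FPKM values, and came to between 0.758 and 1. All 9 lung epithelial markers checked reached 1 FPKM in at least 3 libraries, but not all in every group: SFTPB stood at 40.6 to 144 FPKM in parental cells, 3.46 to 6.01 in PR1 and 0.0204 to 0.0352 in PR2. NAPSA was 9.10 to 16.1 FPKM in parental cells, 41.3 to 52.8 in PR1 and 4.42 to 17.5 in PR2. KRT7 was 1227 to 1798 FPKM in parental cells, 1205 to 2063 in PR1 and 2973 to 3548 in PR2. In the same order, KRT18 means were 6.80, 4.74 and 3.46 FPKM, and EPCAM means 316, 379 and 377. The epithelial sum was 5572 to 6598 FPKM in parental cells, 4938 to 7267 in PR1 and 6866 to 8875 in PR2. Most of it was KRT7, KRT8 and KRT19. None of 7 blood cell markers reached 1 FPKM in 3 libraries (LST1 and TYROBP were at 0 throughout), and 1 of 7 fibroblast markers (COL1A1) and 1 of 4 endothelial markers did. The summed level of the fibroblast markers, most of it COL1A1, was 3.67 to 8.05 FPKM in parental cells, 5.98 to 8.43 in PR1 and 9.48 to 10.8 in PR2, above all other libraries. The part of these marker differences in the results below was not tested. An RNA level here is a mean over all cells of a culture, so fewer expressing cells and less RNA per cell cannot be told apart.

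Ranked by their mean over the 9 libraries, CERS2 was the highest with 73.6 FPKM, followed by ASAH1 with 55.3, SPTLC1 with 31.5 and UGCG with 24.8 FPKM. SGMS2 (11.7 FPKM), CERS6 (8.52) and SGPP1 (7.83) lay in the middle, and their library values ran into each other. SPHK1 (2.77 FPKM) and ACER3 (2.07) were low, and ACER2 averaged 0.164 FPKM. The order was not the same in every group: in PR2 the values of ASAH1 ran into those of CERS2, and those of UGCG into those of SPTLC1. The plot of levels by library shows the patterns: ASAH1 and UGCG were lowest in parental cells and highest on average in PR2, CERS2 and SGPP1 were highest in PR1, SPHK1 was lowest on average in PR1, and ACER3 was listed at 0 in PR2.

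**Figure D1:**
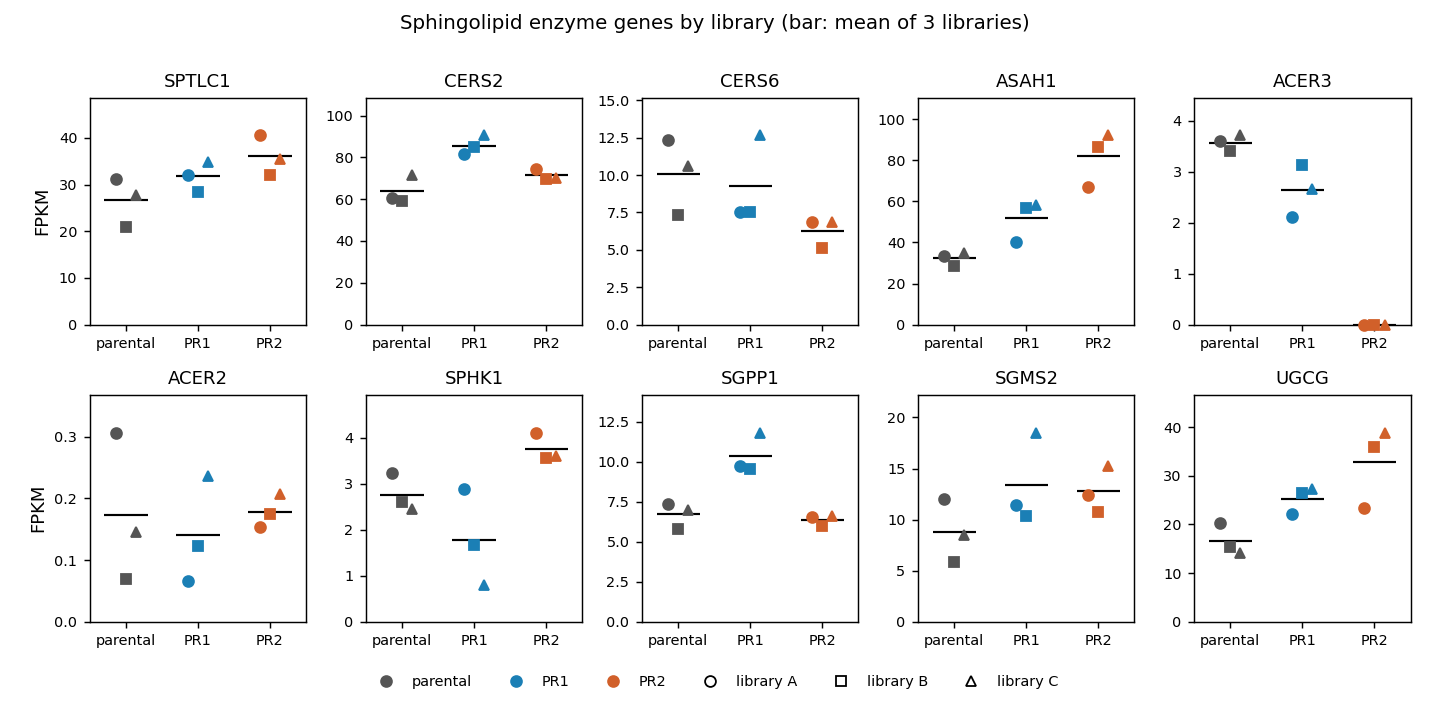
FPKM (y axis, starting at 0 and on its own scale in each panel) of the 10 sphingolipid enzyme genes in the parental, PR1 and PR2 libraries; points are libraries, their shapes the letters A to C, and bars the mean of 3 libraries. ASAH1 separates all 3 groups, and ACER3 lies between 2.10 and 3.71 FPKM in parental and PR1 libraries and at 0 in PR2.

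Synthesis of ceramide starts with serine palmitoyltransferase, of which SPTLC1 is the subunit common to all forms of the enzyme. SPTLC1 stood at 31.2, 20.9 and 27.8 FPKM in parental libraries A, B and C, at 32.1, 28.3 and 34.8 in PR1, and at 40.5, 32.1 and 35.5 in PR2. The 3 PR2 libraries lay above all parental ones by a narrow margin, while PR1 overlapped with both. The difference in log2(FPKM + 1) was 0.44 ± 0.18 (SE) for PR2 against parental and 0.26 ± 0.18 for PR1 against parental. Neither was past the threshold of the fit across all genes (limma, adjusted p of 0.05), and this threshold is meant wherever a member is said to be past or short of it.

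Ceramide synthases attach the fatty acid, and differ in the chain length they prefer. CERS2, the synthase for very long chains, stood at 60.6, 59.1 and 71.8 FPKM in parental libraries A, B and C, at 81.6, 84.9 and 90.5 in PR1, and at 74.5, 69.7 and 70.0 in PR2. All PR1 libraries were above all libraries of the other groups, and PR2 overlapped with parental cells. PR1 differed from parental cells by 0.42 ± 0.14 on the log2 scale, short of the threshold. This difference was past the threshold with the library letter as a block, and also with no filter. PR2 differed from parental cells by 0.16 ± 0.14 and from PR1 by -0.26 ± 0.14, both short of it.

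CERS6, which makes ceramides with shorter chains, showed 12.3, 7.30 and 10.6 FPKM in parental libraries, 7.54, 7.53 and 12.6 in PR1, and 6.87, 5.11 and 6.85 in PR2. The 3 PR2 values were below every other library, the highest of them by less than the spread within either of the other groups. PR2 against parental gave -0.59 ± 0.24, PR2 against PR1 -0.47 ± 0.24 and PR1 against parental -0.12 ± 0.24, none past the threshold, which the first crossed with quantile normalization.

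Of the summed FPKM of CERS2, CERS4, CERS5 and CERS6, CERS2 took 58.3% to 65.9% in parental libraries, 73.8% to 79.2% in PR1 and 74.9% to 79.3% in PR2. Both derivatives thus lay above every parental library in this share. The share of CERS6 overlapped between the groups, at 7.19% to 13.4%, 6.55% to 10.7% and 5.49% to 7.44%. That of CERS4 was 10.9% to 24.6% in parental cells, 3.47% to 10.7% in PR1 and 0.653% to 4.29% in PR2. These shares use CERS2 and CERS6 values that also selected the members, and are descriptions.

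Of the ceramidases, ASAH1, the acid ceramidase of lysosomes, was by far the highest. It stood at 33.6, 28.5 and 34.8 FPKM in parental libraries A, B and C, at 40.2, 56.8 and 58.2 in PR1, and at 67.2, 86.6 and 92.1 in PR2. No value of any group reached into another, and the means were 32.3 ± 3.32 (SD, n = 3), 51.7 ± 10.02 and 82.0 ± 13.1 FPKM. The log2 differences were 0.65 ± 0.19 for PR1 against parental, 1.31 ± 0.19 for PR2 against parental and 0.66 ± 0.19 for PR2 against PR1, each past the threshold. The PR1 difference fell short of it when parental A, B or C, PR1 B or PR1 C was left out (0.56 to 0.82 over all single libraries left out), with no filter, with quantile normalization, and with only the 2 groups compared in the fit. The difference of PR2 from PR1 did so without PR1 A, PR1 B, PR2 B or PR2 C (0.49 to 0.80) and with only those groups in the fit.

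ACER3, an alkaline ceramidase of the endoplasmic reticulum and Golgi, went the other way. It showed 3.59, 3.41 and 3.71 FPKM in parental libraries, 2.10, 3.13 and 2.66 in PR1, and 0 in PR2 A, B and C. The PR1 libraries were all below the parental ones, with a log2 difference of -0.34 ± 0.14 that was short of the threshold, and the PR2 libraries stood apart from all others. A fold change against PR2 is not given, because an entry of 0 here may stand for an estimate that failed, which was not tested. NEU1, a lysosomal sialidase that most cells express, was among 5378 rows listed at 0 in all 9 libraries. Those rows may also hold genes without expression, and unlike them ACER3 had values in all parental and PR1 libraries. No row was at 0 in all 3 parental libraries, or in all 3 PR1 libraries, and at 1 FPKM or more in the 6 others, as ACER3 was for PR2.

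ACER2, an alkaline ceramidase of the Golgi, did not reach the 1 FPKM in at least 3 libraries that a row needed to be tested. Its values were 0.306, 0.0696 and 0.145 FPKM in parental libraries, 0.0655, 0.122 and 0.236 in PR1, and 0.153, 0.174 and 0.208 in PR2. The 3 groups overlapped fully. Of the summed FPKM of ASAH1, ACER3 and ACER2, ASAH1 held 89.1% to 90.02% in parental libraries, 94.6% to 95.3% in PR1 and 99.8% in every PR2 library. The PR2 share takes ACER3 as 0, an entry that may be a failed estimate. ASAH2, another ceramidase, was not tested and is left out of the sum. It stood at 0.287 to 0.574 FPKM in parental libraries, 0.273 to 0.382 in PR1 and 0.512 to 0.632 in PR2, above ACER2 there. The sum itself was 32.0 to 38.6, 42.4 to 61.1 and 67.4 to 92.3 FPKM.

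The promoters of ACER3 and UGCG are shown because ACER3 is the member listed at 0 in PR2 and UGCG one that was above every parental library in both derivatives. The 250 bases before the start of each gene come from RefSeq on GRCh38.p14, at chr11:76860668-76860917 (+ strand) for ACER3 and chr9:111896564-111896813 (+ strand) for UGCG. Capitals mark the GC box GGGCGG, the core letters bound by SP family factors, or its reverse complement CCGCCC.
ACER3: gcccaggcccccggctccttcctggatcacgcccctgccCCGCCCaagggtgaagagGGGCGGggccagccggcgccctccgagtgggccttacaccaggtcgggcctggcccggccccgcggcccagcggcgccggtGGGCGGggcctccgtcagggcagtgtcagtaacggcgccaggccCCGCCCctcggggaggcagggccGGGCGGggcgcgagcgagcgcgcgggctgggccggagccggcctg
UGCG: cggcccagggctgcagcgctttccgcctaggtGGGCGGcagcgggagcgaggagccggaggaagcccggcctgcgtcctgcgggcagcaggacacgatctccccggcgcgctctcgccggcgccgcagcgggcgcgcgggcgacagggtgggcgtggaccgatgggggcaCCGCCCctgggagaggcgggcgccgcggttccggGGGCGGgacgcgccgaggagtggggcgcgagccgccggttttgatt
ACER3 held 5 matches and UGCG 3. The search covered both strands, and 42.6% of 35116 promoters of the same length held at least 1 match, 13.9% at least 3 and 4.15% at least 5. Both windows were rich in G and C (81.2% for ACER3 and 78.4% for UGCG) and held 30 and 39 CpG dinucleotides. A match describes the letters only, and binding and methylation were not measured here. Of the 10 members, 7 had an entry in the promoter table.

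Sphingosine, the product of the ceramidases, is phosphorylated by SPHK1. SPHK1 showed 3.24, 2.61 and 2.45 FPKM in parental libraries A, B and C, 2.88, 1.67 and 0.791 in PR1, and 4.11, 3.56 and 3.61 in PR2. All PR2 values were above all others, and the PR1 libraries were spread, with PR1 A inside the parental range and PR1 C lowest of all. PR2 differed from PR1 by 0.85 ± 0.24, past the threshold, from which it dropped without PR1 B, PR1 C or any 1 PR2 library (0.56 to 1.12), with no filter, with quantile normalization and with only those groups in the fit. PR1 against parental gave -0.50 ± 0.24, which was past the threshold only without PR1 A (-0.78), and PR2 against parental gave 0.34 ± 0.24, short of it. SPHK1 made up 23.1% to 29.2% of the summed FPKM of SPHK1 and SPHK2 in parental cells, 8.79% to 26.0% in PR1 and 33.5% to 38.7% in PR2.

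SGPP1, a phosphatase of the endoplasmic reticulum that removes the phosphate again, was set apart by PR1, as CERS2 was. Its values were 7.39, 5.83 and 6.99 FPKM in parental libraries, 9.77, 9.54 and 11.8 in PR1, and 6.55, 5.97 and 6.64 in PR2. PR1 lay above both other groups, which covered the same range. The log2 difference was 0.56 ± 0.14 for PR1 against parental and -0.62 ± 0.14 for PR2 against PR1, both past the threshold, and -0.06 ± 0.14 for PR2 against parental, short of it. The first dropped short without parental B, parental C, PR1 B or PR1 C (0.47 to 0.62) and with only those groups in the fit, and the second without PR1 C or PR2 B (-0.67 to -0.53). Because SGPP2 was lower in PR2, SGPP1 nonetheless took more of their summed FPKM there (43.4% to 51.2%) than in parental cells (20.7% to 37.2%), with 33.8% to 45.0% in PR1.

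SGMS2 makes sphingomyelin from ceramide at the plasma membrane. It stood at 12.1, 5.81 and 8.46 FPKM in parental libraries, at 11.4, 10.4 and 18.5 in PR1, and at 12.5, 10.7 and 15.2 in PR2. The means were higher in both derivatives, but parental A reached into both of them. The log2 differences were 0.57 ± 0.27, 0.53 ± 0.27 and, between PR2 and PR1, -0.04 ± 0.27, none past the threshold. Its share of the summed FPKM of SGMS1 and SGMS2 was 33.4% to 49.8% in parental cells, 45.6% to 59.2% in PR1 and 31.6% to 42.9% in PR2, so that the derivatives lay apart from each other and both overlapped with parental cells.

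UGCG, the glucosylceramide synthase that commits ceramide to glycosphingolipids, stood at 20.3, 15.3 and 14.1 FPKM in parental libraries A, B and C, at 22.1, 26.4 and 27.2 in PR1, and at 23.3, 36.0 and 38.8 in PR2. Every library of both derivatives was above every parental one, and PR2 A fell inside the PR1 range. The means were 16.6 ± 3.31 (SD, n = 3), 25.2 ± 2.74 and 32.7 ± 8.25 FPKM. PR2 differed from parental cells by 0.92 ± 0.21 on the log2 scale, past the threshold, though not without PR2 C (0.79). PR1 differed from them by 0.59 ± 0.21, which was past the threshold only without the 3 A libraries (0.82), and PR2 from PR1 by 0.34 ± 0.21, short of it.

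**Figure D2:**
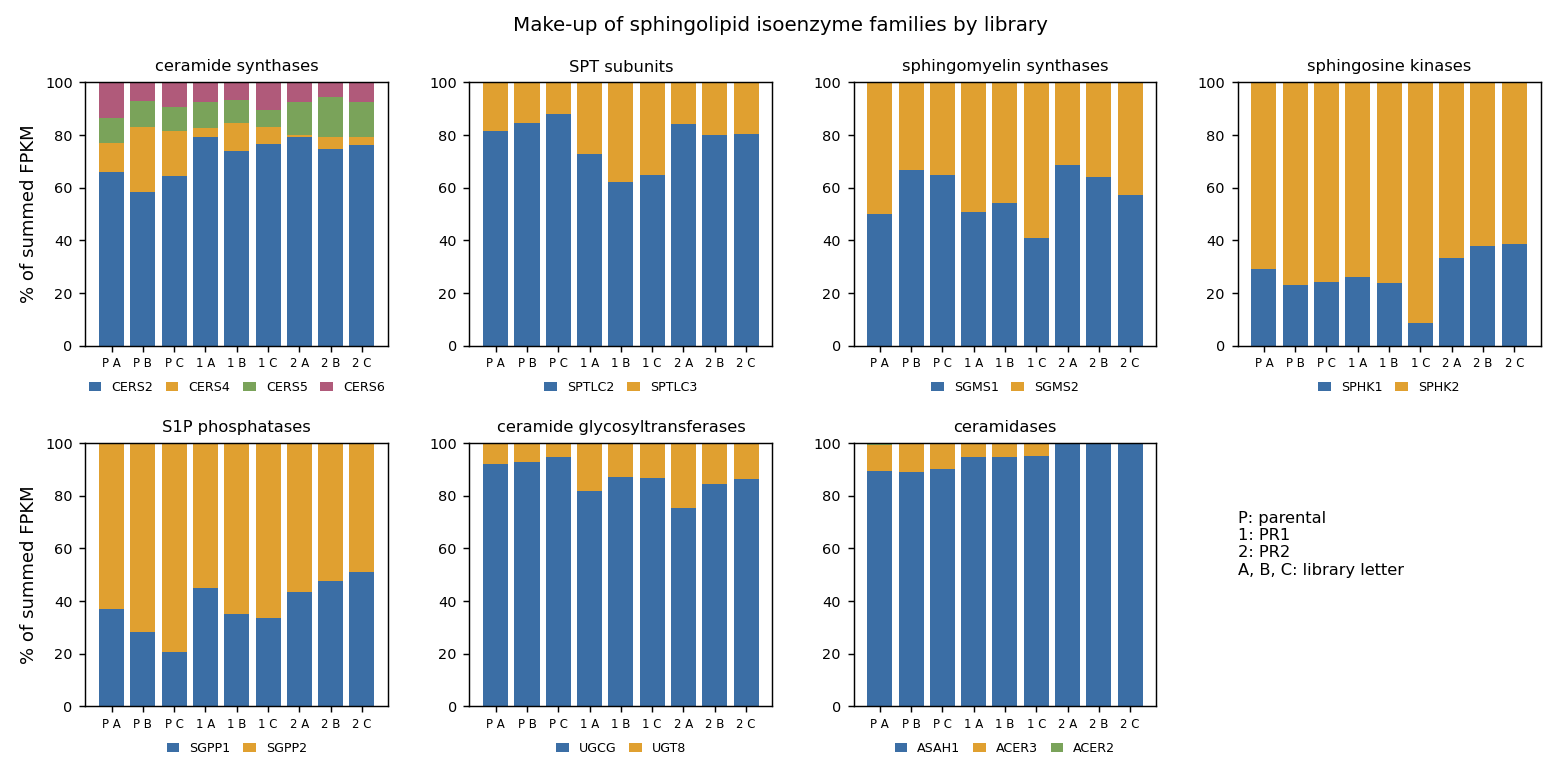
Share of each gene in the summed FPKM of its enzyme family (y axis, % of summed FPKM) in each of the 9 libraries (x axis: P parental, 1 PR1, 2 PR2, with the library letter). CERS2 takes 58.3% to 65.9% of the ceramide synthase sum in parental libraries and more in both derivatives. ASAH1 takes 99.8% of the sum of ASAH1, ACER3 and ACER2 in PR2, where ACER3 enters as 0, which may be a failed estimate. The sums do not hold every gene of a family, and ASAH2 is left out.

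Of the 10 members 9 could be tested, and ACER3 came through the filter on low values by its parental and PR1 libraries alone. In PR1 against parental cells 2 of the 9 were past the threshold, ASAH1 and SGPP1, both higher. Of all 12011 rows tested, 15.5% were past it in that comparison, 7.56% higher and 7.98% lower. For PR2 against parental cells the count was 3, ASAH1 and UGCG higher and ACER3 lower, with a background of 23.4% (13.6% higher, 9.83% lower). For PR2 against PR1 it was 4, ASAH1 and SPHK1 higher and ACER3 and SGPP1 lower, with a background of 19.9% (11% higher, 8.92% lower). Without ACER3, which was selected for its 0 in PR2, the counts were 2 of 8 and 3 of 8. The members were chosen with these contrasts known, so nothing is read from these counts.

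The median log2 difference of the tested members was 0.42 for PR1 and 0.34 for PR2 against parental cells, beside 0.05 and 0.03 for all rows tested. Between PR2 and PR1 it was -0.04, beside 0.00. Without ACER3, whose PR2 values rest on 0, the medians of the other 8 were 0.49, 0.39 and 0.07. The comparisons with parental cells share the 3 parental libraries. All members, not only ACER3, were chosen with these contrasts known, so nothing is read from these medians.

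**Figure D3:**
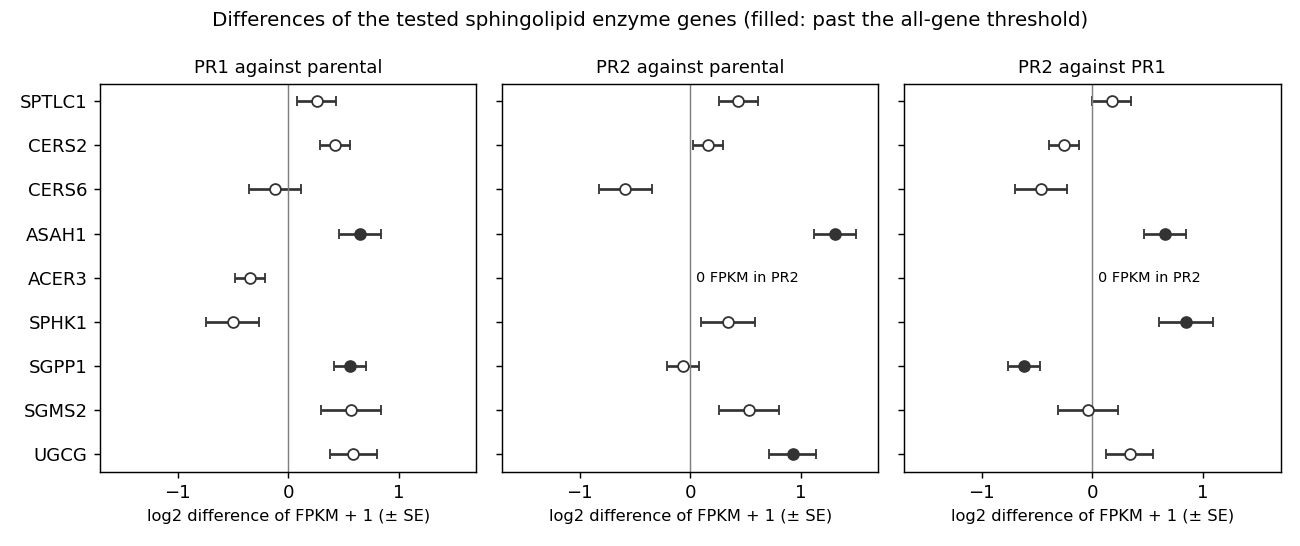
Difference in log2(FPKM + 1) (x axis, ± SE) of the 9 tested members in the 3 comparisons; filled points were past the all-gene threshold, and ACER3 has no value where PR2 is listed at 0. ASAH1 is filled in each panel, at 0.65, 1.31 and 0.66.

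The rest of the pathway was followed in 61 other genes of sphingolipid metabolism. Of these, 57 had a row of their own and 45 could be tested; CERS1, S1PR3, GLB1 and NEU3 shared combined rows with a neighbour, and their values cannot be split. In PR1 against parental cells 10 of the 45 changed (22.2%, beside the 15.5% of all rows), 6 higher and 4 lower, and 15 with the library letter as a block. PR2 against parental cells gave 14 (31.1%, beside 23.4%), 8 higher and 6 lower, and PR2 against PR1 gave 14 (beside 19.9%), 4 higher and 10 lower, and 20 with the block. Their median log2 differences were 0.15, 0.18 and 0.09, beside 0.05, 0.03 and 0.00 for all rows. The p-values below are limma's, adjusted by the Benjamini-Hochberg method over all rows tested.

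In ceramide synthesis 12 other genes were tested, and SPTLC3 changed most in PR1. SPTLC3, which can replace SPTLC2 beside SPTLC1 and shortens the long-chain base, stood at 2.60, 1.86 and 1.49 FPKM in parental libraries, at 4.91, 9.72 and 10.04 in PR1, and at 2.41, 3.15 and 3.50 in PR2. PR1 was apart from both other groups: the log2 difference was 1.59 ± 0.25 against parental cells (limma adjusted p = 0.00248), and PR2 fell by 1.15 ± 0.25 against PR1 (limma adjusted p = 0.0104). PR2 against parental gave 0.44 ± 0.25 (limma adjusted p = 0.244, and 0.0174 without the 3 A libraries). Its share of the summed FPKM of SPTLC2 and SPTLC3 was 11.9% to 18.4% in parental cells, 27.0% to 37.7% in PR1 and 15.9% to 19.9% in PR2. ORMDL3, an inhibitor of serine palmitoyltransferase, was lowest in PR1, at 11.4, 15.4 and 14.2 FPKM, against 20.5, 26.6 and 23.5 in parental cells and 25.1, 31.2 and 27.0 in PR2. Its log2 difference was -0.75 ± 0.16 for PR1 against parental (limma adjusted p = 0.0134, and 0.0529 without parental B) and 0.98 ± 0.16 for PR2 against PR1 (limma adjusted p = 0.00293). SPTSSA, a small activating subunit of the transferase, was lower in PR2 than in PR1 at -0.59 ± 0.19 (limma adjusted p = 0.0497), a call lost without any 1 library of the 2 groups except PR2 C and without the 3 A libraries.

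CERS4, DEGS2 and FA2H, which choose or modify the chains of ceramide, were lower in PR2 than in parental cells, in PR1 or in both. CERS4, a synthase for long chains, stood at 10.1, 25.0 and 19.1 FPKM in parental libraries, 3.57, 12.3 and 7.82 in PR1, and 0.614, 3.995 and 2.84 in PR2. PR2 lay below all parental libraries (-2.52 ± 0.49, limma adjusted p = 0.00495). PR1 against parental (-1.14 ± 0.49, limma adjusted p = 0.153) and PR2 against PR1 (-1.37 ± 0.49, limma adjusted p = 0.0779) passed only with the library letter as a block (limma adjusted p = 0.000577 and 0.00022) or without the 3 A libraries (0.0269 and 0.0133), and the latter also without PR1 A (0.0408).

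DEGS2, which forms the hydroxylated phytoceramides, was lowest in PR2. It stood at 1.35, 4.07 and 2.46 FPKM in parental cells, 3.76, 5.63 and 4.15 in PR1, and 0.147, 0.310 and 0.429 in PR2. PR2 was below all other libraries, with -1.42 ± 0.25 against parental cells (limma adjusted p = 0.00303) and -2.08 ± 0.25 against PR1 (limma adjusted p = 0.000486). PR1 against parental gave 0.66 ± 0.25 (limma adjusted p = 0.113), and 0.029 with the block and 0.0301 without parental B.

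FA2H, the fatty acid hydroxylase that feeds hydroxylated ceramides, stood at 10.5, 17.7 and 11.5 FPKM in parental cells, 27.8, 19.1 and 23.4 in PR1, and 10.98, 8.35 and 7.40 in PR2. PR1 was highest, with 0.80 ± 0.23 against parental cells (limma adjusted p = 0.0386; lost without parental A, parental C, PR1 A or PR1 C and without the 3 A libraries). PR2 fell by 1.30 ± 0.23 against PR1 (limma adjusted p = 0.00335) and differed from parental cells by -0.50 ± 0.23 (limma adjusted p = 0.137, and 0.039 without the 3 A libraries). SPTSSB, another small subunit of serine palmitoyltransferase, was not tested, at 2.85, 2.73 and 0.833 FPKM in parental cells, 0.134 to 0.398 in PR1 and at most 0.0125 in PR2.

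Among 8 other tested genes of sphingosine-1-phosphate, SPNS2 rose in both derivatives. SPNS2, the exporter of sphingosine-1-phosphate, stood at 1.57, 2.36 and 4.27 FPKM in parental libraries, 8.86, 14.5 and 10.9 in PR1, and 9.11, 16.4 and 17.5 in PR2. Both derivatives were above all parental libraries, by 1.77 ± 0.31 for PR1 (limma adjusted p = 0.00397) and 2.05 ± 0.31 for PR2 (limma adjusted p = 0.00108). PR2 differed from PR1 by 0.28 ± 0.31 (limma adjusted p = 0.567).

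SGPP2, the relative of SGPP1, stood at 12.5, 14.7 and 26.8 FPKM in parental cells, 11.9, 17.7 and 23.2 in PR1, and 8.53, 6.55 and 6.33 in PR2. PR2 lay below both other groups, with -1.16 ± 0.30 against parental cells (limma adjusted p = 0.0177; lost without parental C, PR2 B or PR2 C) and -1.16 ± 0.30 against PR1 (limma adjusted p = 0.0212; lost without PR1 B, PR1 C, PR2 B or PR2 C). PPAP2A, a lipid phosphate phosphatase, was higher in PR2 than in parental cells at 0.92 ± 0.24 (limma adjusted p = 0.0219; lost without parental C, PR2 B or PR2 C). The 4 remaining receptors, S1PR1, S1PR2, S1PR4 and S1PR5, were low: only S1PR2 was tested, at group means of 2.97, 2.65 and 3.36 FPKM, and it passed in no comparison.

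In the sphingomyelin branch, with 9 other genes tested, the acid and a neutral sphingomyelinase went opposite ways in both derivatives. SMPD1, the acid sphingomyelinase of lysosomes, stood at 13.1, 10.6 and 12.6 FPKM in parental cells, 25.2, 29.6 and 25.7 in PR1, and 18.2, 28.3 and 23.5 in PR2. It rose by 1.09 ± 0.18 in PR1 (limma adjusted p = 0.00278) and by 0.88 ± 0.18 in PR2 (limma adjusted p = 0.00567). SMPD2, a neutral sphingomyelinase, stood at 9.83, 9.31 and 11.8 FPKM in parental cells, 5.65, 4.13 and 3.75 in PR1, and 6.75, 4.46 and 4.92 in PR2. It fell by 1.05 ± 0.19 in PR1 (limma adjusted p = 0.00481) and by 0.84 ± 0.19 in PR2 (limma adjusted p = 0.00998), and for both genes the derivatives lay on one side of all parental libraries.

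SGMS1, the sphingomyelin synthase of the Golgi, was highest in PR2, at 27.0, 19.0 and 20.3 FPKM, against 12.2, 11.6 and 15.5 in parental cells and 11.7, 12.4 and 12.8 in PR1. The log2 differences were 0.71 ± 0.17 against parental cells (limma adjusted p = 0.0134, lost without parental B) and 0.78 ± 0.17 against PR1 (limma adjusted p = 0.0103), and both were lost without the 3 A libraries (0.0669 and 0.0525). The acid sphingomyelinase-like genes SMPDL3A and SMPDL3B and the ceramide kinase CERK made up the rest of the changed genes. SMPDL3A was lower in PR1 at -0.77 ± 0.20 (limma adjusted p = 0.0285; lost without any 1 library of the 2 groups except parental A). SMPDL3B was higher in PR2, by 0.54 ± 0.16 against parental cells (limma adjusted p = 0.0379; lost without any 1 library except PR2 A) and 0.65 ± 0.16 against PR1 (limma adjusted p = 0.0202; lost without PR1 B, PR1 C, PR2 B or PR2 C). CERK was lower in PR2 than in PR1 at -0.47 ± 0.14 (limma adjusted p = 0.0392, lost without PR1 B, PR1 C, PR2 B or PR2 C). PR1 against parental passed for CERK with the block (limma adjusted p = 0.0424) and with no filter.

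**Figure D4:**
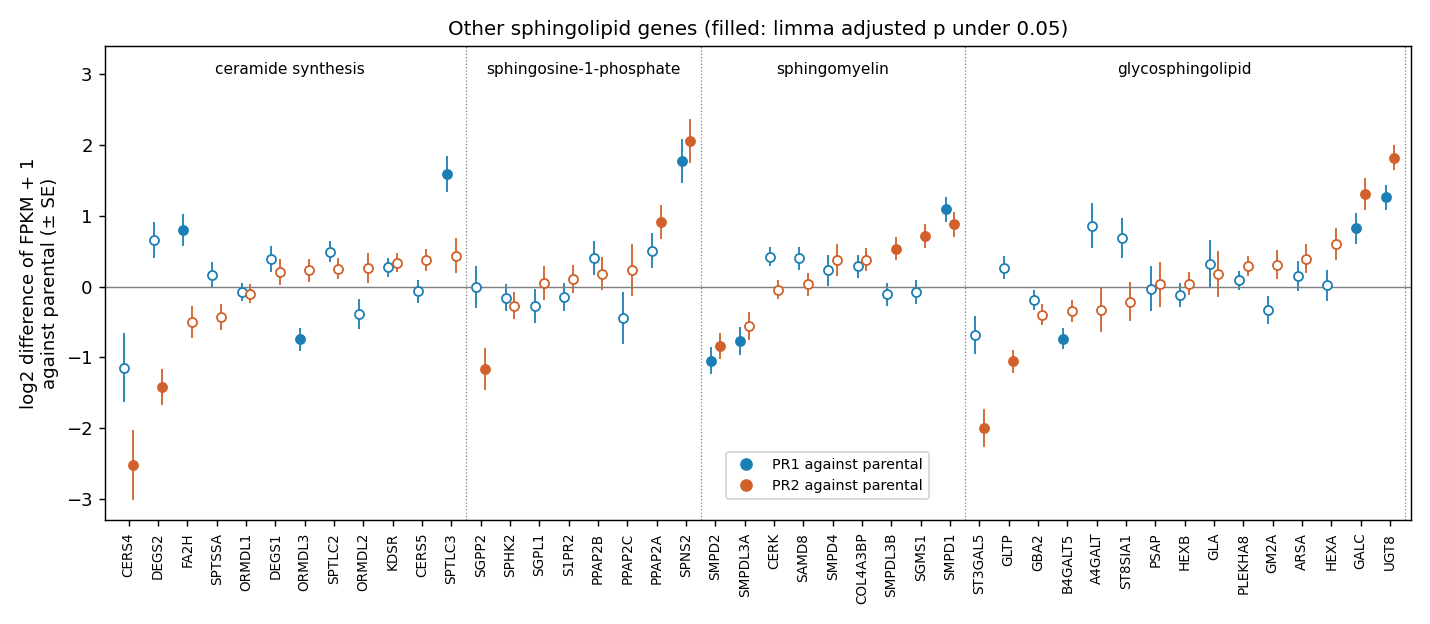
Difference in log2(FPKM + 1) against parental cells (y axis, ± SE) of other tested sphingolipid genes, by step and, within a step, in the order of the PR2 difference; filled points have a limma adjusted p under 0.05. SPNS2 and UGT8 are high in both derivatives, and CERS4 and ST3GAL5 are lowest in PR2, at -2.52 and -2.0.

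Of the glycosphingolipid genes 16 others were tested. UGT8, which adds galactose to ceramide where UGCG adds glucose, stood at 1.76, 1.19 and 0.784 FPKM in parental cells, 4.89, 3.91 and 4.16 in PR1, and 7.70, 6.56 and 6.22 in PR2, with no overlap between any groups. It rose by 1.26 ± 0.18 in PR1 (limma adjusted p = 0.00139) and by 1.82 ± 0.18 in PR2 (limma adjusted p = 8.73e-05). PR2 against PR1 gave 0.56 ± 0.18 (limma adjusted p = 0.0521, and 0.012 with the block). UGT8 made up 5.26% to 7.99% of the summed FPKM of UGCG and UGT8 in parental cells, 12.9% to 18.1% in PR1 and 13.8% to 24.8% in PR2, so its share was larger in the derivatives although UGCG was higher there as well.

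ST3GAL5, which makes the first ganglioside from lactosylceramide, was lowest in PR2. It stood at 38.2, 32.6 and 19.8 FPKM in parental cells, 12.5, 20.2 and 22.2 in PR1, and 5.71, 7.76 and 6.29 in PR2. PR2 was below every other library, with -2.0 ± 0.27 against parental cells (limma adjusted p = 0.000587) and -1.32 ± 0.27 against PR1 (limma adjusted p = 0.00784). PR1 against parental gave -0.68 ± 0.27 (limma adjusted p = 0.12, and 0.0427 without parental C).

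GLTP, a carrier of glycolipids in the cytosol, was lower in PR2 than in both other groups. It stood at 22.8, 27.4 and 22.6 FPKM in parental cells, 24.6, 35.1 and 29.3 in PR1, and 10.2, 11.3 and 12.02 in PR2. PR2 fell by 1.05 ± 0.16 against parental cells (limma adjusted p = 0.00129) and by 1.32 ± 0.16 against PR1 (limma adjusted p = 0.000492).

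A4GALT, the globotriaosylceramide synthase, was highest in PR1, at 12.4, 17.2 and 13.7 FPKM, with 5.32, 13.4 and 5.59 in parental cells and 4.24, 8.04 and 5.38 in PR2. PR2 against PR1 gave -1.19 ± 0.32 (limma adjusted p = 0.0261; lost without PR1 B, PR1 C, PR2 A or PR2 C and without the 3 A libraries). PR1 against parental gave 0.86 ± 0.32 (limma adjusted p = 0.0989), 0.00793 with the block and 0.0143 without parental B, the parental library that overlapped with PR1. Of the other transferases, B4GALT5, a lactosylceramide synthase, was lower in PR1 than in parental cells at -0.73 ± 0.15 (limma adjusted p = 0.0104). ST8SIA1, which extends gangliosides, was lower in PR2 than in PR1 at -0.90 ± 0.28 (limma adjusted p = 0.0472; lost without any 1 library of the 2 groups except PR2 A), and higher in PR1 than in parental cells only without parental A (limma adjusted p = 0.0275) or the 3 A libraries (0.00811).

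The lysosomal enzymes that break glycosphingolipids back down to ceramide, the substrate of ASAH1, were higher in part. GALC, which removes galactose, stood at 10.7, 8.91 and 13.2 FPKM in parental cells, 21.2, 14.8 and 24.9 in PR1, and 23.2, 28.1 and 34.1 in PR2. All libraries of the derivatives were above the parental ones, by 1.30 ± 0.22 in PR2 (limma adjusted p = 0.00229) and 0.82 ± 0.22 in PR1 (limma adjusted p = 0.0334; lost without parental A, parental B, PR1 A or PR1 C and without the 3 A libraries). PR2 against PR1 passed only with the block (0.48 ± 0.22, limma adjusted p = 0.159, and 0.0416 with it).

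GM2A, an activator protein of ganglioside breakdown, was higher in PR2 than in PR1 at 0.64 ± 0.20 (limma adjusted p = 0.0492), a call lost without any 1 library of the 2 groups. The genes ORMDL3, SPTSSA, PPAP2A, SGMS1, SMPDL3A, SMPDL3B, CERK, B4GALT5, ST8SIA1 and GM2A were named after their values were seen.

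Because ACER3 was at 0 in PR2, its neighbours on chromosome 11 were examined, a choice made after the values were seen. Of the 12 nearest protein-coding genes in RefSeq order, 6 to each side, 11 had a row and 7 could be tested. Lower in PR2 than in parental cells were 4 of the 7, beside 9.83% of all rows, and none was higher. Against PR1 3 were lower in PR2, beside 8.92%, and in PR1 against parental cells 1 was lower, beside 7.98%.

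B3GNT6, the next gene after ACER3 and a glycosyltransferase of mucin-type chains, stood at 6.05, 10.3 and 5.33 FPKM in parental libraries A, B and C, 0.628, 1.11 and 1.78 in PR1, and 0.0173, 0.0211 and 0.0554 in PR2. No group overlapped with another. It fell by 1.91 ± 0.24 in PR1 (limma adjusted p = 0.00077) and by 2.95 ± 0.24 in PR2 against parental cells (limma adjusted p = 3.14e-05), and by 1.04 ± 0.24 in PR2 against PR1 (limma adjusted p = 0.0139; 0.0538 without PR1 C).

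CAPN5, a calpain protease and the gene after that, stood at 16.5, 28.0 and 16.0 FPKM in parental cells, 6.06, 12.2 and 10.4 in PR1, and 1.11, 2.66 and 2.95 in PR2, again with no overlap. The difference was -2.71 ± 0.32 for PR2 against parental (limma adjusted p = 0.000262) and -1.71 ± 0.32 for PR2 against PR1 (limma adjusted p = 0.00492). PR1 against parental gave -1.01 ± 0.32 (limma adjusted p = 0.0584, and 0.00608 with the block).

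PAK1, a kinase 6 genes beyond ACER3, stood at 48.0, 58.8 and 49.7 FPKM in parental cells, 24.0, 41.6 and 38.7 in PR1, and 13.6, 17.1 and 16.7 in PR2, also without overlap. PR2 against parental cells gave -1.66 ± 0.21 (limma adjusted p = 0.000401) and against PR1 -1.06 ± 0.21 (limma adjusted p = 0.00667), and PR1 against parental gave -0.60 ± 0.21 (limma adjusted p = 0.0809, and 0.0174 with the block). TSKU, on the other side, was lower in PR2 than in parental cells at -0.83 ± 0.27 (limma adjusted p = 0.0489; lost without parental B, parental C or any 1 PR2 library). TSKU in PR1 against parental gave -0.83 ± 0.27 (limma adjusted p = 0.066, and 0.0108 with the block and 0.0347 without parental A). MYO7A, which lies between CAPN5 and PAK1, passed in no comparison, with group means of 3.75, 2.75 and 3.77 FPKM, nor did EMSY (C11orf30 in the table) and THAP12 (PRKRIR). DNA copy number was not measured in these libraries.

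**Figure D5:**
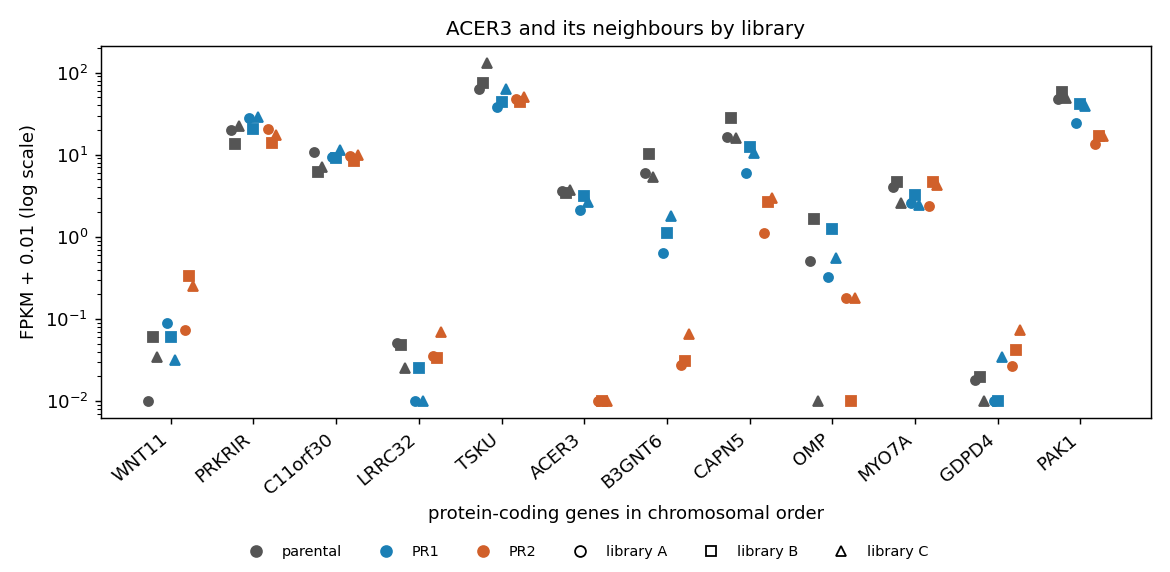
FPKM + 0.01 (y axis, log scale) of ACER3 and the 11 of its neighbours that have a row, in chromosomal order (x axis); points are libraries, colours the groups, and a value of 0 is drawn at 0.01. B3GNT6, CAPN5 and PAK1 are lowest in PR2 and highest in parental libraries, while MYO7A overlaps in all groups.

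Finally, the genes most like the 3 members with the widest range of group means were looked up among 8704 rows at a mean of 5 FPKM or more in a group. Likeness was the root mean square difference in log2(FPKM + 1) over the 9 libraries after each gene's own mean had been taken away, where 0 is identity. For ACER3 they were AUTS2 (0.17), SIDT1 (0.20) and SDC1 (0.22), and for ASAH1 AFAP1 (0.09), ST6GALNAC5 (0.13) and CGN (0.14). For UGCG they were KANK2 (0.08), FAM21C (0.13) and FAM21A (0.14), of which FAM21A and FAM21C are near-identical copies whose values are uncertain. None of the 3 closest to ACER3 was listed at 0 as it was: their PR2 means were 2.21 FPKM for AUTS2, 0.278 for SIDT1 and 42.4 for SDC1. The ACER3 ranking rests on its PR2 entries of 0, which selected it and may be failed estimates, so nothing is read from it. ACER3 itself, with its highest group mean at 3.57 FPKM, fell short of the 5 FPKM asked of the candidates, so genes as low as ACER3 were not searched.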

How the data were processed

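Per the labels' protocols, RNA was extracted with a column kit and sequenced as TruSeq libraries. Listed in the submitters' processing notes are Cuffdiff 2.2.1, Cufflinks 2.2.1, TopHat2 2.0.14 and the genome build hg19 (GRCh37). For annotation and read numbers, nothing was given in the sources used here. Values deposited by the authors are in FPKM. The unit is inferred from the tools and values, since the header names none. Of 24069 rows, 704 combine several genes. Some genes that were tested and counted are not reported here by name.

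Values were taken as log2(FPKM + 1), which understates changes of low genes. Rows that reached 1 FPKM in 3 or more of the 9 libraries (12011, 561 of them combined) were fitted with limma 3.58.1 in R 4.3.3, with 1 mean per group, an intensity trend, two-sided tests and Benjamini-Hochberg adjustment over all rows (threshold 0.05). The fit was tested on simulated data. Named beside the 10 members were pathway genes past the threshold with a log2 change of 1 or more in any comparison. Members and lists were chosen with earlier results of these data known.

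Same-letter libraries deviated together in PR1 and parental cells (correlations 0.311, 0.477 and 0.163 for A, B and C) and in PR2 and PR1 (0.527, 0.544 and 0.254). In PR2 and parental cells A and B did so as well, but C hardly did (0.296, 0.417 and 0.014). The main fit did not pair the letters, so SEs, calls and p-values leave pairing out unless a block is named. The block was 1 term over all 9 libraries. Other pseudocounts, filters, normalization, a letter block, fits of the compared groups alone and leaving libraries out were tried.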

Additional observations from a re-analysis of the deposited data

Results flagged for a closer look

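For 11 of the 45 other sphingolipid genes tested, the difference from parental cells had opposite signs in PR1 and PR2. The derivatives also differed from each other past the threshold (limma adjusted p under 0.05, with each p in the report). The rule asks only for the sign and takes in very small differences, such as -0.07 for SGMS1 in PR1 and -0.04 for CERK in PR2. How many of all rows meet this rule was not computed, so nothing is read from the count. The log2 difference of PR2 from PR1 was -0.59 for SPTSSA, 0.98 for ORMDL3, -2.08 for DEGS2 and -1.30 for FA2H in ceramide synthesis. It was 0.78 for SGMS1, 0.65 for SMPDL3B and -0.47 for CERK in the sphingomyelin branch. Among glycosphingolipid genes it was -0.90 for ST8SIA1, -1.19 for A4GALT, 0.64 for GM2A and -1.32 for GLTP. Both comparisons with parental cells share the parental libraries, and of the separate differences from parental cells few passed: FA2H and ORMDL3 for PR1, and DEGS2, SGMS1, SMPDL3B and GLTP for PR2. The opposite sign itself was lost for SGMS1 in PR1 without parental C (0.05), and in PR2 for CERK without PR2 C (0.01), ST8SIA1 without parental A (0.08) and A4GALT without parental B (0.06).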

How the results depend on the processing

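The number of members past the threshold moved most. For PR1 against parental cells it was 2, but 1 with quantile normalization, 0 with only the 2 groups compared in the fit, and 0 to 3 with single libraries left out. For PR2 against parental cells it was 3, and 5 with the replicate block, though the C libraries hardly deviated together there (correlation 0.014). For PR2 against PR1 it was 4, but 2 with a filter at 5 FPKM or with only the 2 groups compared, and 1 to 3 with single libraries left out. Of the other sphingolipid genes, the 14 changed between PR2 and PR1 became 9 with the filter at 5 FPKM and 7 to 13 with single libraries left out, lowest without PR1 B or PR1 C, and 20 with the replicate block. A stricter filter and fewer libraries test fewer rows or leave fewer degrees of freedom. Between PR2 and PR1 the filter at 5 FPKM left out ACER3 and SPHK1, which were below it in every library. ASAH1 and SGPP1 kept their calls with that filter. The cause was otherwise not tested. With the replicate block the rows past the threshold went from 1866 to 3088 for PR1 against parental cells and from 2395 to 3789 for PR2 against PR1, and for the genes named the block changed no other call in these comparisons than those given in the report. In PR2 against parental cells, CERS6, SPTLC1 and SMPDL3A passed with the replicate block and in the main fit did not. CERS6 and SMPDL3A also passed there with quantile normalization. Of the single log2 differences of members under all alternatives, 309 kept their side of the threshold, 29 lost and 7 gained a call, and of those of other named genes 924, 91 and 26. No called difference changed sign, but small ones short of the threshold could, as CERS6 in PR1 did (-0.12, and 0.14 without the 3 A libraries). Beyond the losses in the report, calls were lost with no filter for GALC, FA2H and SMPDL3A (PR1 against parental), TSKU (PR2 against parental) and SPTSSA, A4GALT, ST8SIA1 and GM2A (PR2 against PR1). SPTSSA, TSKU and GM2A were also lost with the filter at 5 FPKM and quantile normalization, ST8SIA1 and GM2A with a pseudocount of 0.1, FA2H, TSKU, SPTSSA and CERK with only the 2 groups compared, and GM2A without the 3 A libraries. Read numbers are unknown, so no counting error can be given for ACER2, SPHK1 or ACER3, which are low, and 3 libraries a group limit every value.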
